A study of Mus musculus with 3 samples.

Results

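The pericytes and smooth muscle cells of mouse Achilles tendon were selected on their own transcripts, as the cell barcodes of 2 tendon libraries that carried at least 1000 UMIs (unique molecular identifiers, each marking 1 captured RNA molecule), a UMI of at least 3 of the 6 markers Rgs5, Kcnj8, Notch3, Abcc9, Higd1b and Myh11, and 0 UMIs of Ptprc (leukocytes), Tnmd (tenocytes) and Pi16 (adventitial fibroblasts). The rule kept 264 of 25067 barcodes of the neurectomy library and 227 of 32951 barcodes of the sham library, 491 in all, out of 81584 barcodes in the 3 libraries of the series. The neurectomy library pooled Achilles tendons of 5 mice whose sural nerve was cut 1 week before the ankle was held in dorsiflexion for 4 weeks, a posture used to overstrain the tendon. The sham library pooled tendons of 5 mice in which the nerve was only exposed, with the same 4 weeks of immobilisation, so both groups carry the overstrain and no library from a resting tendon enters the comparison. The remaining library came from dorsal root ganglia (DRG) of 6 mice, given 5 µL of a tdTomato-carrying AAV-PHP.S vector at 4 weeks of age and sampled 4 weeks later. In it the same rule kept 747 of 23566 barcodes, used below only as mural cells of another tissue.

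Mural cells wrap the endothelial tube of a vessel. Smooth muscle cells ring arterioles and larger vessels and contract through smooth muscle actin and myosin, whereas pericytes sit singly on capillaries within the basement membrane and are known by the KATP channel subunits Kcnj8 and Abcc9, the PDGF-B receptor and the G-protein regulator Rgs5. Both depend on PDGF-B and Notch signals from the endothelium, and sympathetic and sensory nerve fibres act on their tone through noradrenaline, neuropeptide Y and CGRP.

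With 1 library of pooled mice per group there are no replicates, and no p-value was computed. Intervals below are exact 95% intervals that cover counting error only. Expression is given as counts per 1000000 (CPM) of the UMIs summed over the barcodes of a class, ratios as log2 of the neurectomy over the sham CPM, and a gene was called higher or lower where the ratio was at least 2-fold and its interval excluded no change. A gene entered a comparison where its 2 counts summed to 50 UMIs or more and the higher level reached 10 CPM. The libraries held 79750679 (neurectomy), 133570956 (sham) and 239515477 (DRG) UMIs. The median depth of the mural barcodes was 2840, 3783 and 3295 UMIs, and their summed UMIs were 1053023 and 1391571 in the tendon libraries. The libraries shared 1001 barcode sequences between neurectomy and sham and 153 and 189 with the DRG library, none of them among the mural barcodes. No mural barcode of the neurectomy library held a UMI of the Y-linked genes Ddx3y, Uty, Kdm5d or Eif2s3y without Xist, and 211 held Xist alone. In the sham library 66 held Y-linked UMIs alone, 80 Xist alone and 17 both. Sex therefore moves with the groups, and a second set of ratios was taken against the 80 sham barcodes with Xist alone, called Xist-only below. It is given beside genes named below that no longer met the fold or the interval of the call in it. Some named genes fell below 50 UMIs in it and did not enter. For single genes of the endothelial-poor barcodes defined below no such ratios were computed, and only levels of a few genes are given.

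The label was borne out in part. In the neurectomy library 198 of the 264 barcodes (75.0%, interval 69.3 to 80.1) also held UMIs of at least 3 of 10 endothelial markers (Pecam1, Cdh5, Kdr, Flt1, Emcn, Vwf, Tie1, Egfl7, Cldn5, Ptprb), and in the sham library 156 of 227 did (68.7%, 62.3 to 74.7). These endothelial-bearing barcodes carried the 10 markers at 6081 CPM (neurectomy) and 6199 CPM (sham), close to the 6637 and 7422 CPM of barcodes gated as endothelial in the same libraries, beside mural markers at 3530 and 4044 CPM. Endothelial-poor barcodes, with at most 1 of the 10 markers, numbered 55 (20.8%) and 61 (26.9%). They carried the endothelial markers at 155 and 164 CPM and the 6 mural markers at 6640 and 9006 CPM, against 433 and 439 CPM in the endothelial gate and 58.5 and 27.7 CPM in the fibroblast gate. These levels are a description, since the same markers chose the barcodes and both gates admitted fewer than 3 of the 6 mural markers. The DRG mural barcodes had the opposite makeup, with 602 of 747 (80.6%) endothelial-poor. Most of the tendon barcodes thus carried an endothelial and a mural signature at once. Whether such a barcode held more than 1 cell was not tested, and the results that follow are given for endothelial-poor barcodes apart where they differ. The endothelial-poor barcodes gave 16.0% of the mural UMIs of the neurectomy library and 30.3% of those of the sham library, and their median depth was 1992 and 7293 UMIs. Of the 80 Xist-only sham barcodes 12 were endothelial-poor and 64 endothelial-bearing, against 32 and 33 of the 66 with Y-linked UMIs alone. Ratios against Xist-only sham barcodes therefore change this makeup along with sex, and their parts cannot be told apart.

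**Figure D1:**
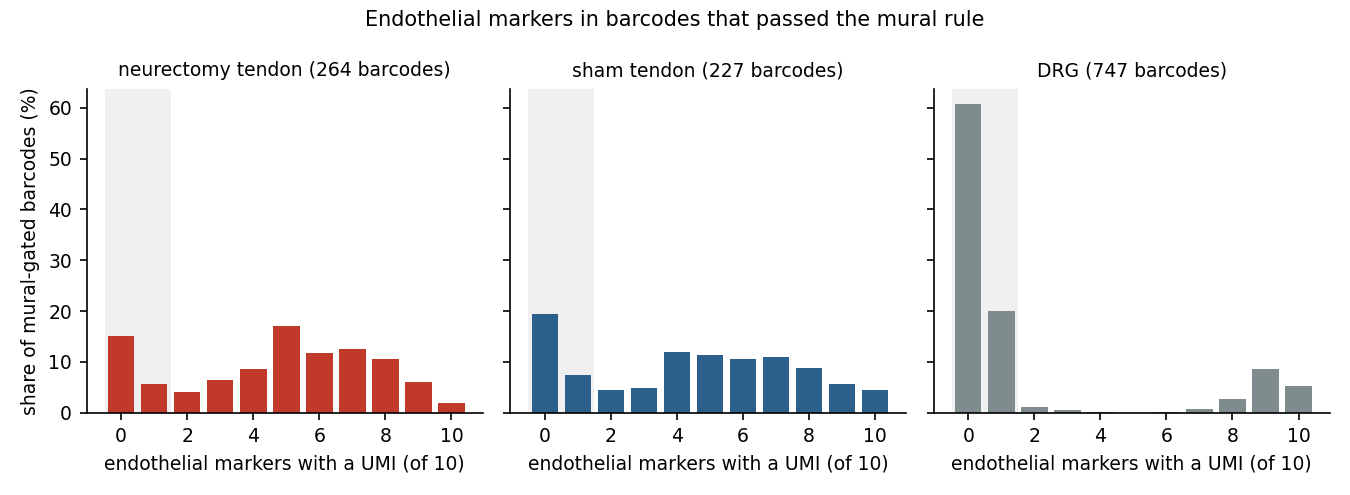
Number of the 10 endothelial markers with a UMI (horizontal axis) in the barcodes that passed the mural rule, as a share of those barcodes in percent (vertical axis), for each library; the shaded bins hold the endothelial-poor barcodes. In both tendon libraries a peak at 0 markers (40 and 44 barcodes) stands beside a broad second group, whereas most DRG barcodes lie in the shaded bins.

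The 6 markers that made the rule differed in how widely they were held, which is a description since they chose the members. Rgs5, which speeds the shut-off of Gq and Gi signals, had a UMI in 252 of 264 neurectomy barcodes and 223 of 227 sham barcodes, at 2367 and 2918 CPM. Notch3, the arterial mural Notch receptor, followed in 221 and 198 barcodes at 559 and 803 CPM. Myh11, the smooth muscle myosin heavy chain, was held by 183 and 181 barcodes at 640 and 1463 CPM. Abcc9, the sulfonylurea receptor SUR2 of the KATP channel, was held by 141 and 85 barcodes at 379.9 and 380.1 CPM. Its pore-forming partner Kcnj8 was held by 61 and 51 barcodes at 132 and 124 CPM, and the pericyte transcript Higd1b by 48 and 40 at 65.5 and 74.0 CPM. The level of free RNA was not tested, since the fibroblast gate admitted only barcodes with fewer than 3 of these 6 markers. In the fibroblast gate (median depth 1940 and 1899 UMIs) Rgs5 was at 26.8 and 11.8 CPM and Myh11 at 5.27 and 5.95 CPM, with a Myh11 UMI in 2.03% and 3.05% of barcodes. At the rule's edge 188 and 172 members held exactly 3 markers, while 354 and 323 other barcodes held exactly 2.

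Among barcodes with at least 1000 UMIs, the rule kept 1.72% (1.52 to 1.94) in the neurectomy library and 1.28% (1.12 to 1.46) in the sham library, a ratio of 1.34 (1.12 to 1.61). The ratio moved with depth and with the endothelial transcripts. After every barcode was thinned to 1000 UMIs, the rule kept 100 and 111 barcodes, 0.653% and 0.628%, a ratio of 1.04 (0.786 to 1.38). Among endothelial-poor barcodes the ratio was also 1.04. A difference in the share of mural cells was therefore not detectable once depth was matched.

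The barcodes fell into those with Myh11 but neither channel gene (Myh11 only), those with Kcnj8 or Abcc9 but no Myh11 (channel only), those with both and those with neither. Myh11 only barcodes were 105 of 264 (39.8%, 33.8 to 46.0) in the neurectomy library and 133 of 227 (58.6%, 51.9 to 65.1) in the sham library. Channel only barcodes were 78 (29.5%, 24.1 to 35.4) and 45 (19.8%, 14.8 to 25.6), barcodes with both 78 and 48, and barcodes with neither 3 and 1. After thinning, Myh11 only barcodes were 42.0% and 61.3%, channel only 40.0% and 28.8%, and those with both 18.0% and 8.11%. In both forms the Myh11 only share was higher in the sham library and its intervals did not overlap before thinning. Among the 80 Xist-only sham barcodes the Myh11 only share was 47.5% (36.2 to 59.0), whose interval overlaps that of the neurectomy library. Among the endothelial-poor barcodes 19 of 55 neurectomy and 35 of 61 sham barcodes were Myh11 only, and 21 and 11 channel only. In the DRG library 332 of 747 mural barcodes (44.4%) were Myh11 only and 235 (31.5%) channel only.

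**Figure D2:**
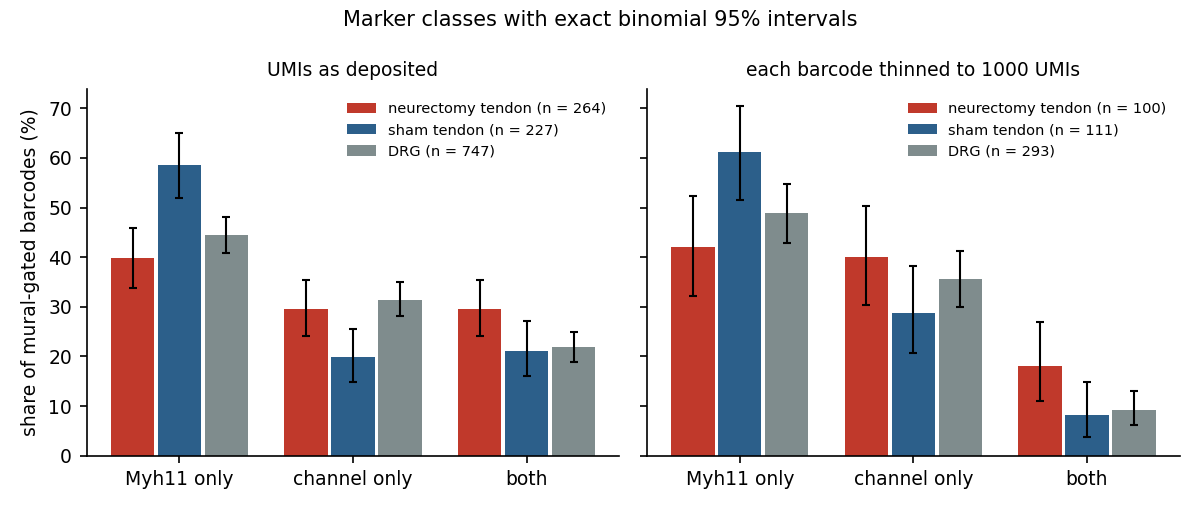
Share of mural-gated barcodes (vertical axis, percent) in 3 marker classes (horizontal axis) for each library, with UMIs as deposited (left) and with each barcode thinned to 1000 UMIs (right); bars are shares and whiskers exact binomial 95% intervals. On the left the Myh11 only class makes up 39.8% (neurectomy) and 58.6% (sham), and on the right 42.0% and 61.3%.

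The classes were compared with each other inside each tendon library. Of 2530 genes measured in both, with Myh11, Kcnj8 and Abcc9 left out, 58 (2.29%) were higher and 16 (0.632%) lower in Myh11 only than in channel only barcodes of each library. This is a description, because marker genes of the same barcodes made the classes and a gene had to pass in both libraries. Some lists had medians of opposite sign in the neurectomy and sham libraries, such as the endothelial markers (0.13 and -1.05) and the tenocyte markers (-0.81 and 1.04). Kcnab1, a β subunit of voltage-gated potassium channels, led with 277 against 12.3 CPM in the neurectomy library and 668 against 21.2 CPM in the sham library, log2 ratios of 4.50 and 4.98. The sodium-calcium exchanger Slc8a1 followed with 3.63 and 3.75. The M-band protein Myom1 stood at 3.54 and 5.73, Dgkb, a diacylglycerol kinase, at 2.53 and 2.56, and Sox6, a transcription factor, at 2.35 and 3.08. Prdm16, a transcription factor of arterial cells, stood at 2.86 and 2.09, and Cacnb2, a β subunit of the L-type calcium channel, at 2.15 and 3.57. Of the 26 genes of the contractile list 17 were measured in both classes and 9 were called higher in Myh11 only barcodes, with medians of 1.04 and 2.49, while the medians of all genes measured were -0.00 and -0.07. Lmod1, which nucleates actin filaments in smooth muscle, was at 188 against 40.8 CPM (neurectomy) and 381 against 29.7 CPM (sham).

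Genes higher in channel only barcodes had negative ratios. Lin7a, a scaffold protein, had log2 ratios of -2.49 and -2.03, and Pde7b, a cAMP phosphodiesterase, of -1.46 and -3.05. The endothelin B receptor Ednrb stood at -1.39 and -2.39, Lama2, the laminin α2 chain, at -1.93 and -1.11, and Steap4, a metalloreductase, at -1.74 and -1.04. Spry1 and Spred2, which damp FGF and other receptor tyrosine kinase signals, stood at -1.25 and -1.55 and at -1.20 and -1.10. Of the 30 named genes all but Selenop had a DRG value, and these kept their sign in the ganglia apart from Sema3g and Aqp1. Kcnab1 stood at 4.86 and Slc8a1 at 2.94 there. Sema3g, a class 3 semaphorin, was 2.31 and 2.33 in tendon and -2.08 in the DRG library. Aqp1, the water channel, was -1.04 and -2.61 in tendon and 1.67 in the DRG library. Aqp1 is also an endothelial transcript. In tendon 52 of 78 and 32 of 45 channel only barcodes were endothelial-bearing, and 84 of 105 and 95 of 133 Myh11 only barcodes. In the DRG library 73 of 235 channel only and 8 of 332 Myh11 only barcodes were. The part of endothelial transcripts in the Aqp1 ratios was not tested. With endothelial-poor barcodes alone, and all that held a channel gene set against Myh11 only, 540 genes were measured in both tendon libraries, 18 (3.33%) higher and 33 (6.11%) lower in Myh11 only barcodes. Of 11 contractile genes among them 2 were called higher, with medians of 0.72 and 1.55.

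**Figure D3:**
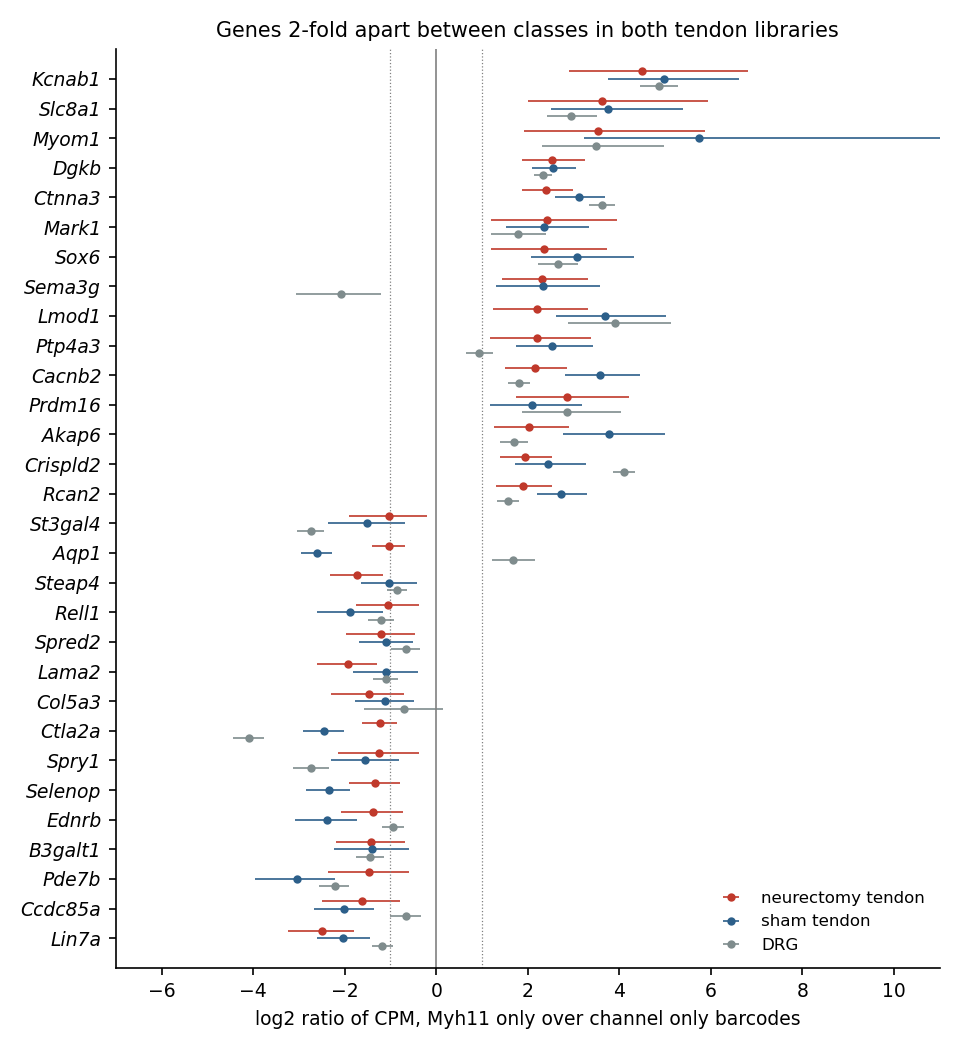
Log2 ratio of CPM in Myh11 only over channel only barcodes (horizontal axis) for the 30 named genes (vertical axis) in each library; points are ratios, lines 95% counting intervals, dotted lines 2-fold, and the interval of Myom1 in sham runs past the axis. The signs agree between the tendon libraries by selection, and Sema3g and Aqp1 have the opposite sign in the DRG library.

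Several genes of the contractile apparatus were lower in the neurectomy library across the mural barcodes as a whole. In all 491 barcodes 7240 genes entered, of which 93 (1.28%) were called higher and 161 (2.22%) lower in the neurectomy library. Against Xist-only sham barcodes the balance turned, with 160 of 5634 genes called higher and 100 lower. Of the 26 contractile genes 23 entered, 9 were called lower and none higher, 19 intervals lay below 0, and their median log2 ratio was -0.83 against -0.01 for all genes that entered. The summed contractile level was 6737 CPM in the neurectomy and 12799 CPM in the sham library. Acta2, smooth muscle actin, was at 878 and 2322 CPM (log2 -1.40, -1.51 to -1.30) with a UMI in 161 and 160 barcodes. The actin-binding calponin relative Tagln was at 798 and 1908 CPM (-1.26, -1.37 to -1.15). The regulatory myosin light chain Myl9 was at 337 and 920 CPM (-1.45, -1.62 to -1.28), and β-tropomyosin Tpm2 at 312 and 805 CPM (-1.37, -1.55 to -1.19). Phospholamban Pln, which restrains the sarcoplasmic calcium pump, fell from 170 to 28.5 CPM (-2.57, -3.17 to -2.02), with a UMI in 16 against 35 barcodes. Mustn1 (170 and 483 CPM, -1.51) and Lmod1 (108 and 231 CPM, -1.10) fell as well. Mylk, the myosin light chain kinase, was at 388 and 692 CPM (-0.83), short of 2-fold, and the focal adhesion protein Vcl at 497 and 464 CPM (0.10, -0.07 to 0.27). Against sham barcodes with Xist alone the list median was -0.20, Acta2 was -0.62, Tagln -0.36, Myl9 -0.83, Tpm2 -0.53, Pln -0.95, Mustn1 -0.65 and Lmod1 -0.20, so none of these was called in that comparison.

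The contractile difference was wide in the endothelial-poor Myh11 only barcodes. There the 26 genes together made up a median of 9897 CPM per barcode in the neurectomy library (lowest 3918, highest 68476, 19 barcodes) and 38479 CPM in the sham library (642 to 72283, 35 barcodes), with 26478 CPM in the 321 such DRG barcodes. At least 20000 CPM, a level chosen after the values were seen, was passed by 3 of 19 barcodes (neurectomy) and 26 of 35 (sham). The groups overlap, but most sham barcodes lie above most neurectomy barcodes. Endothelial-bearing Myh11 only barcodes stood at medians of 5673 and 6111 CPM, endothelial-poor channel only barcodes at 3650 and 3774 CPM, those with both at 8364 and 15665 CPM, and endothelial-bearing channel only barcodes at 3281 and 3080 CPM, and no endothelial-bearing barcode passed 20000 CPM. In sum, 32 sham and 5 neurectomy mural barcodes passed that level. The depth of the endothelial-poor Myh11 only barcodes differed as well, with medians of 1699 and 7939 UMIs. With barcodes of at least 2000 UMIs only, their medians were 10742 CPM (8 barcodes) and 38622 CPM (33 barcodes). Depth still differed between these subsets, with medians of 2507 and 8273 UMIs, so this does not match depth. Within the sham library these barcodes had a median of 38642 CPM where they held Y-linked UMIs alone (22 barcodes) and 33477 CPM where they held Xist alone (6 barcodes), and the 17 neurectomy barcodes with Xist alone had 9897 CPM. The part of the individual mice in each pool was not tested. Matrix transcripts differed in this class too, with log2 ratios of 4.57 for Col1a1 (4.28 to 4.87) and 3.04 for Comp (1.06 to 5.26, 11 UMIs). Against endothelial-poor barcodes with a channel gene, the tenocyte markers measured had medians of 1.33 (neurectomy) and -4.07 (sham). The 1 fibroblast marker measured was at 0.49 and -4.32. Their part in the contractile difference was not tested.

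**Figure D4:**
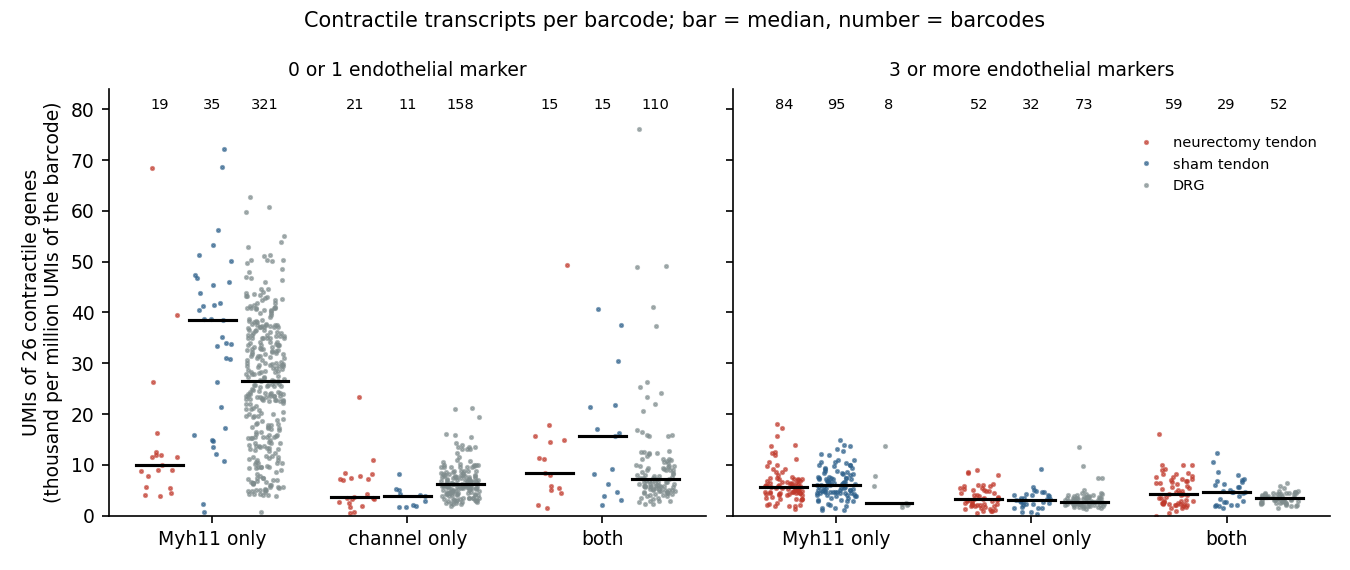
UMIs of the 26 contractile genes per 1000000 UMIs of each barcode, in units of 1000 (vertical axis), by marker class (horizontal axis) and library, for endothelial-poor (left) and endothelial-bearing (right) barcodes; points are barcodes, bars medians and numbers above them the barcodes. On the left, the sham Myh11 only barcodes have a median of 38479 CPM and the neurectomy barcodes 9897 CPM, and on the right no tendon barcode reaches 20000 CPM.

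Gene by gene, 1137 genes entered between these 19 and 35 barcodes, with 81 (7.12%) called higher and 123 (10.8%) lower and a median of -0.18 over all of them. Of 21 contractile genes that entered, 9 were called lower, 15 intervals lay below 0 and none above, and the median was -0.99. Acta2 was at 2784 and 8315 CPM (log2 -1.58, -1.83 to -1.34), against 3571 CPM in the DRG library. Tagln was at 2051 and 6415 CPM (-1.64, -1.93 to -1.37), Myl9 at 971 and 3086 CPM (-1.67, -2.10 to -1.27), and Tpm2 at 1044 and 2856 CPM (-1.45, -1.87 to -1.06). Not every gene of the apparatus moved with them. Tpm1 was at 3077 and 3539 CPM (-0.20, -0.45 to 0.04) and Vcl at 476 and 523 CPM (-0.13, -0.80 to 0.48). Caldesmon Cald1 was lower but short of 2-fold, at 1795 and 2361 CPM (-0.40, -0.72 to -0.09). Myh11, which placed the barcodes in the class, was at 2894 and 5307 CPM. Where barcodes of this class held Xist alone (17 neurectomy and 6 sham), Acta2 was at 2879 and 9064 CPM. Tagln was at 2106 and 5153 CPM in these and Myl9 at 947 and 3012 CPM. Rgs5 went the other way, at 1101 and 502 CPM. In the endothelial-poor barcodes of all classes, where 141 of 2481 genes (5.68%) were called higher and 175 (7.05%) lower, 11 of 22 contractile genes were called lower with a median of -0.96. In the endothelial-bearing barcodes, where 71 of 6007 genes (1.18%) were called higher and 68 (1.13%) lower, the median was 0.15, Acta2 was at 611 and 534 CPM (0.20, 0.01 to 0.38) and Tagln at 695 and 578 CPM (0.27, 0.09 to 0.44). In barcodes with both Myh11 and a channel gene, where 79 of 3971 genes (1.99%) were called higher and 96 (2.42%) lower, none of 19 contractile genes was called, and the median was -0.34.

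**Figure D5:**
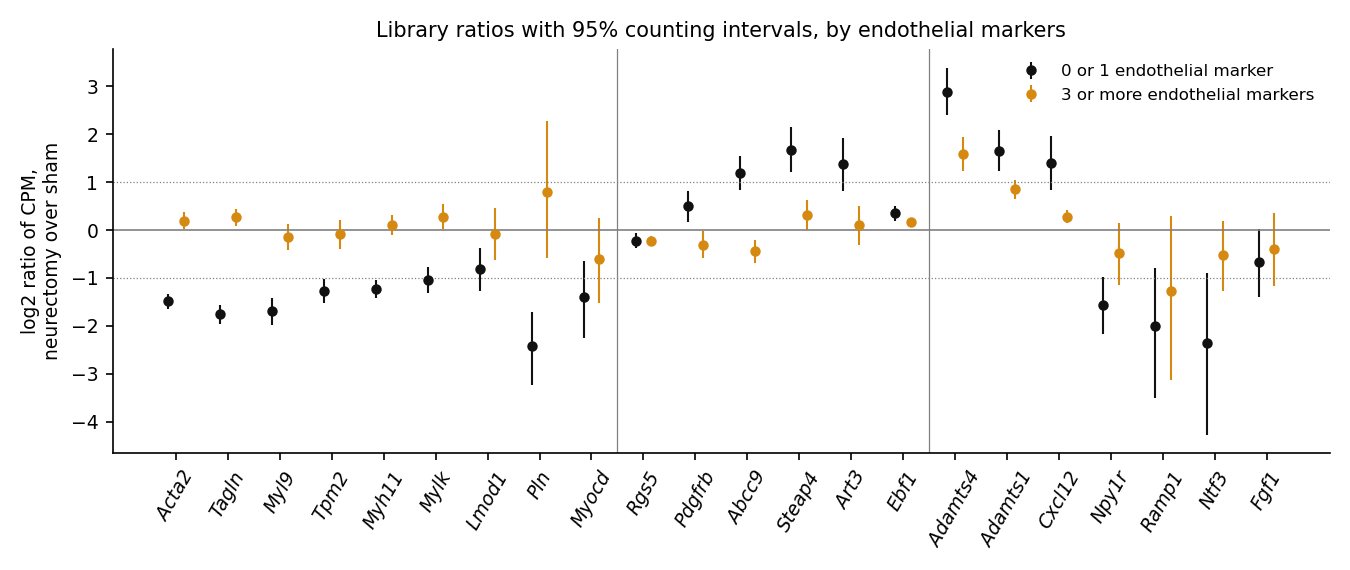
Log2 ratio of CPM, neurectomy over sham (vertical axis), for named contractile genes and their regulator Myocd, pericyte genes and signalling genes (horizontal axis, separated by lines), in endothelial-poor (black) and endothelial-bearing (orange) barcodes; points are ratios, lines 95% counting intervals and dotted lines 2-fold. Acta2, Tagln and Myl9 lie below -1 in endothelial-poor barcodes and near 0 in endothelial-bearing barcodes, and Adamts4 lies above 1 in both.

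Many contractile genes are driven by serum response factor and its coactivator myocardin through the CArG box of their promoters. Of the contractile genes 23 had a promoter window (250 bases before to 50 after the start site) in RefSeq, build GRCm38.p6, and 2 of them (8.70%) held a CArG box on either strand, against 488 of 27025 promoters in all (1.81%) and 0 of 12 promoters of the pericyte list. The sequences of both are printed because one of the genes was lower in the neurectomy library and the other was not. Capitals mark the box, which starts at -161 in Myl9 (chr2:156775278-156775337, plus strand) and at -227 in Vcl (chr14:20929148-20929205, plus strand) relative to the start site.
Myl9 promoter: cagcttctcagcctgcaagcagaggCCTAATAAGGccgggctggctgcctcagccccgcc
Vcl promoter: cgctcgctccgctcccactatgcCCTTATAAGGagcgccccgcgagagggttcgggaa
The match is a description of these windows, and windows further from the start site were not searched. Myocd, the myocardin gene, was at 33.2 and 106 CPM over all mural barcodes (-1.67, -2.24 to -1.13), the only gene of the 15 contractile regulators to pass the call, with a UMI in 24 and 50 barcodes. In endothelial-poor Myh11 only barcodes it was at 165 and 371 CPM (-1.17, -2.34 to -0.18), and against sham barcodes with Xist alone at -0.78 over all barcodes. The listed regulator Nr2f2 was also called lower in endothelial-poor Myh11 only barcodes, at 385 and 1093 CPM (-1.51, -2.22 to -0.87). Klf4, which opposes the contractile programme, was at 817 and 594 CPM (0.46, 0.32 to 0.60). The median of the 11 regulators that entered was -0.22.

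The pericyte list was measured in the same barcodes. Over all barcodes 18 of the 22 listed genes entered, 1 was called lower and none higher, and the median was -0.28. In endothelial-poor barcodes the median of 13 genes was 0.29 and 3 were called higher. Among these were Steap4 (517 and 161 CPM, 1.68, 1.21 to 2.16) and the ecto-ADP-ribosyltransferase relative Art3 (345 and 133 CPM, 1.38, 0.82 to 1.93). Pdgfrb, the receptor that holds pericytes to vessels, was at 323 and 380 CPM over all barcodes (-0.24, -0.44 to -0.04) and at 749 and 532 CPM in endothelial-poor barcodes (0.49, 0.17 to 0.82), and was at -0.53 over all barcodes against Xist-only sham barcodes. The makeup of the endothelial-poor barcodes moves with these values, since 36 of 55 neurectomy and 26 of 61 sham barcodes held a channel gene. In channel only barcodes, where 81 of 2044 genes (3.96%) were called higher and 72 (3.52%) lower, Steap4 was at 355 and 174 CPM (1.03, 0.48 to 1.60), Pdgfrb at 335 and 318 CPM (0.07, -0.40 to 0.54) and the median of 8 pericyte genes was 0.31. In this class 136 of 1465 genes were called higher and 72 lower against Xist-only sham barcodes.

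The lists of Notch and PDGF genes, through which endothelium and mural cells hold each other, stood at medians of 0.19 (12 genes) and 0.08 (6 genes), with none called over all barcodes.

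Among receptors through which nerves act on vessels, Npy1r and Ramp1 were lower in the neurectomy library. Npy1r, the neuropeptide Y receptor of sympathetic vasoconstriction, was at 71.2 and 193 CPM (-1.44, -1.83 to -1.07), with a UMI in 39 and 70 barcodes. In endothelial-poor Myh11 only barcodes it was at 311 and 671 CPM (-1.11, -1.92 to -0.39), in 5 of 19 and 29 of 35 barcodes. These detection counts were not matched for depth, whose medians there were 1699 and 7939 UMIs. Where barcodes of that class held Xist alone, Npy1r was at 328 CPM (17 neurectomy barcodes) and 581 CPM (6 sham barcodes). Ramp1, the subunit that turns Calcrl into the CGRP receptor, was at 10.4 and 53.9 CPM (-2.37, -3.43 to -1.45), 11 UMIs against 75. Calcrl itself was at 163 and 158 CPM over all barcodes (0.05, -0.25 to 0.34) but at 29.7 and 128 CPM in endothelial-poor barcodes (-2.11, -3.79 to -0.80), and endothelial cells express it too. These were 2 called lower of the 4 genes of the 11-gene neuropeptide list that entered. Against sham barcodes with Xist alone Npy1r was at -0.78 and Ramp1 at -1.40, and the median of the list went from -0.70 to 0.04. Ramp1 held 25 UMIs in that comparison and did not enter. The 44 vasoactive receptors gave 11 that entered, none called, and a median of -0.03. Ednra, the endothelin A receptor, was at 127 and 236 CPM (-0.89, -1.19 to -0.60) and the angiotensin receptor Agtr1a at 55.1 and 30.2 CPM (0.87, 0.27 to 1.48).

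Channels and second messengers of smooth muscle tone gave 4 genes called lower and none higher of 20 that entered, with a median of -0.38. They were Kcna5, a voltage-gated potassium channel (15.2 and 46.0 CPM, -1.60), Trpc6, a receptor-operated cation channel (50.3 and 132 CPM, -1.39), Ryr2, the ryanodine receptor (21.8 and 61.8 CPM, -1.50), and Slc8a1 (68.4 and 164 CPM, -1.26). The L-type calcium channel gene Cacna1c was at 585 and 574 CPM (0.03, -0.13 to 0.18). Against sham barcodes with Xist alone Trpc6 was at -1.47, while Kcna5 was at -0.86, Ryr2 at -0.78 and Slc8a1 at -0.37. Of 15 genes of the cGMP and cAMP list 3 were called lower and 1 higher, median -0.40. The calcium-dependent phosphodiesterase Pde1a was at 169 and 352 CPM (-1.06, -1.31 to -0.81) and -1.07 against Xist-only sham barcodes, and the R7 regulator Rgs7bp at 44.6 and 134 CPM (-1.58), which was -0.14 against them. The nitric oxide receptor subunit Gucy1a1 was at 233 and 415 CPM (-0.83, -1.06 to -0.62) and the kinase Prkg1 at 1419 and 2204 CPM (-0.64, -0.73 to -0.55). Rgs16, an inducible regulator of G-protein signals, rose from 51.7 to 113 CPM (1.13, 0.69 to 1.57). In endothelial-poor Myh11 only barcodes Ryr2 was at 220 and 238 CPM (-0.11, -1.14 to 0.79) and Trpc6 at -0.82 (-2.20 to 0.31). Slc8a1 was at -0.94 (-1.89 to -0.11) there, and none of these was called. Kcna5 held 2 and 35 UMIs in that class and did not enter. Pde1a (-1.53) and Rgs7bp (-1.30) were called lower in it.

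The 17 basement membrane genes that entered had a median of -0.11 with 1 called lower, Ntn4, a laminin-binding netrin (79.8 and 211 CPM, -1.41, -1.77 to -1.05). Against Xist-only sham barcodes Ntn4 was at -0.85 and was not called. Col4a1, a chain of vascular collagen IV, was at 829 and 898 CPM (-0.12, -0.24 to 0.01). Lama2 was at 178 and 126 CPM over all barcodes (0.50, 0.19 to 0.80), and rose in endothelial-poor barcodes from 154 to 446 CPM (1.53, 1.03 to 2.03). Of 8 integrin genes 1 was called lower, Itga8 (26.6 and 72.6 CPM, -1.45, -2.11 to -0.83), median -0.21. Against Xist-only sham barcodes Itga8 was at -0.64 (-1.50 to 0.25) and was not called. In endothelial-poor Myh11 only barcodes Itga8 was at 201 and 289 CPM (-0.52, -1.58 to 0.40) and was not called. Ntn4 was called lower in that class, at 238 and 605 CPM (-1.34, -2.29 to -0.53). The 25 fibrillar matrix genes had a median of -0.26 with 1 called lower, and against Xist-only sham barcodes the median was -0.68 over all and -0.92 in Myh11 only barcodes. Col1a1 showed how far such values depend on the class, at 3483 and 4330 CPM over all barcodes (-0.31), 3825 and 5975 CPM in Myh11 only (-0.64) and 5660 and 2763 CPM in channel only barcodes (1.03). In endothelial-poor barcodes it was at 0.92 over all classes, 4.57 in Myh11 only and -0.75 in channel only barcodes, so its direction turned in each. Against Xist-only sham barcodes Col1a1 was at -0.76 over all, -1.46 in Myh11 only and 0.98 in channel only barcodes. In the sham library 743 of its 6026 UMIs came from 1 barcode.

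Adamts4, a proteoglycan-cleaving protease, was called higher in each class of mural barcode examined. It rose from 110 to 380 CPM (1.79, 1.52 to 2.07), with a UMI in 99 of 264 neurectomy and 67 of 227 sham barcodes. It rose in Myh11 only (364 and 98.3 CPM, 1.89), channel only (351 and 80.6 CPM, 2.12), both (414 and 139 CPM, 1.57), endothelial-poor (844 and 114 CPM, 2.89) and endothelial-bearing barcodes (296 and 98.4 CPM, 1.59), and was at 1.89 against Xist-only sham barcodes. In the endothelial-poor Myh11 only barcodes 49 of its 63 neurectomy UMIs were in 1 barcode, and a UMI was found in 5 of 19 and 9 of 35 barcodes. In the endothelial gate, where 1.71% of 9101 genes were called higher and 0.319% lower, Adamts4 was at 106 and 75.2 CPM (0.50, 0.21 to 0.79). In the fibroblast gate, where 0.887% of 9354 genes were called higher and 1.05% lower, it was at 28.8 and 22.6 CPM (0.35, 0.13 to 0.56). The difference between cell types was not tested. The related Adamts1 was at 613 and 308 CPM (0.99, 0.81 to 1.17), and rose in endothelial-poor barcodes from 209 to 660 CPM (1.66, 1.24 to 2.08) and against Xist-only sham barcodes by 1.62. The chemokine Cxcl12 was at 977 and 658 CPM (0.57, 0.44 to 0.70), and rose in endothelial-poor barcodes from 128 to 339 CPM (1.40, 0.84 to 1.97). The endothelin precursor Edn1 rose from 47.4 to 128 CPM (1.43, 1.00 to 1.88), but 132 of 135 and all 66 of its UMIs were in endothelial-bearing barcodes. Of the 21 genes of this vessel list that entered, 2 were called higher and none lower, with a median of 0.25.

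Among factors that support or guide nerves, 1 of 9 genes that entered was called lower and 1 higher, median 0.19. Ntf3, neurotrophin-3, was at 31.3 and 70.4 CPM (-1.17, -1.78 to -0.59), with a UMI in 25 and 56 barcodes, and in endothelial-poor barcodes 4 UMIs stood against 51 (23.8 and 121 CPM, -2.35, -4.28 to -0.90). The DRG mural barcodes held it at 2.80 CPM. The repulsive guidance factor Sema3f was at 43.7 and 17.2 CPM (1.34, 0.60 to 2.12), all 46 neurectomy UMIs in endothelial-bearing barcodes. Against sham barcodes with Xist alone Ntf3 was at -0.25.

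Fgf1, the broadest ligand of the FGF receptors, was found mostly in Myh11 only barcodes, with 33 of its 51 neurectomy UMIs and 115 of its 137 sham UMIs there. Over all barcodes it was at 48.4 and 98.4 CPM (-1.02, -1.52 to -0.55), with a UMI in 31 and 59 barcodes. In Myh11 only barcodes it was at 92.4 and 177 CPM (-0.93, -1.54 to -0.37), in endothelial-poor barcodes at 137 and 216 CPM (-0.66, -1.39 to 0.01) and in endothelial-poor Myh11 only barcodes at 238 and 308 CPM (-0.37, -1.34 to 0.48). The value over all barcodes thus passed the call, and those in the smaller classes did not, nor did that against Xist-only sham barcodes, at -0.51 for Fgf1. DRG mural barcodes held it at 111 CPM. Of 11 genes of the FGF list that entered it was the only one called, and the median was 0.07. Etv1, a transcription factor induced by FGF signals, was at 56.0 and 90.5 CPM (-0.69, -1.16 to -0.24).

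Several inflammatory genes were higher in the neurectomy library. Of 29 listed genes 19 entered, 5 were called higher and none lower, 11 intervals lay above 0 and the median was 0.51, or 0.82 against Xist-only sham barcodes. Il6, the acute-phase cytokine, rose from 15.1 to 139 CPM (3.20, 2.53 to 3.93), with a UMI in 48 and 12 barcodes. Its UMIs lay mostly in endothelial-bearing barcodes (122 and 14 UMIs, 3.22, 2.42 to 4.14), and in the endothelial-poor barcodes 23 stood against 7. In the endothelial gate it was at 30.3 and 24.9 CPM (0.28, -0.24 to 0.82) and in the fibroblast gate at 45.1 and 24.2 CPM (0.90, 0.71 to 1.09). The interferon-induced chemokine Cxcl10 was at 47.5 and 4.31 CPM (3.46, 2.24 to 4.97), with 21 of its 50 neurectomy UMIs in 1 barcode. The leukocyte adhesion molecule Icam1 rose from 58.9 to 160 CPM (1.44, 1.05 to 1.84), the complement component C3 from 15.8 to 41.8 CPM (1.40, 0.63 to 2.21; 0.95, -0.03 to 2.05 against Xist-only sham barcodes and then not called) and Tnfaip3, the NF-κB inhibitor A20, from 28.0 to 58.9 CPM (1.07, 0.47 to 1.69). In endothelial-poor barcodes Tnfaip6, the hyaluronan-binding protein TSG-6, rose from 68.8 to 595 CPM (3.11, 2.50 to 3.76), with a UMI in 16 of 55 and 8 of 61 barcodes. In endothelial-bearing barcodes it was at 73.8 and 84.2 CPM (-0.19, -0.69 to 0.31), and in the fibroblast gate at 595 and 377 CPM (0.66). Immediate early and stress genes, which also respond to tissue dissociation, had 17 of 26 intervals above 0 and a median of 0.33, with none called. That median was 0.72 against Xist-only sham barcodes.

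Among genes outside the lists, the highest ratios included Selp, P-selectin of activated endothelium, at 181 and 10.8 CPM (4.07, 3.31 to 4.94) in 31 and 3 barcodes, none of them endothelial-poor. In the endothelial gate Selp was at 426 and 178 CPM (1.26). Csmd1, a complement regulator, was at 236.5 and 41.7 CPM (2.50) and was higher in the endothelial (4.25) and fibroblast gates (1.41) too. The prostaglandin transporter Slco2a1 (2.28), the cytokine receptor chain Csf2rb2 (2.13), Angptl1 (2.02), Rnf122 (1.89), the NF-κB subunit gene Nfkb2 (1.87) and Tsix, the antisense partner of Xist (1.92), completed the highest. The lowest were Ddx3y, with 0 UMIs against 104 (a log2 ratio of -4.71 or lower when 0 is set to 3 counts over the group), Tmem132d (-3.99), Spp1, osteopontin (-2.96), Pln, Dgkg (-2.50) and Map3k7cl (-2.41, but -1.05 with an interval of -2.47 to 0.37 against Xist-only sham barcodes), together with the lymphatic genes Reln (-3.55), Ccl21a (-3.32) and Mmrn1 (-3.02) and with Pard6g (-2.54). The lymphatic UMIs came mostly from 1 sham barcode, and without the barcode with most UMIs in each library Ccl21a was at 0.61. Angptl1 (1.69), Rnf122 (3.44) and Tmem132d (-2.47) fell below 50 UMIs against Xist-only sham barcodes and did not enter there. Spp1 was also lower in the endothelial (-1.33) and fibroblast gates (-3.07). Rpl29, a ribosomal protein gene, was lower in the mural barcodes (-2.05), the endothelial gate (-1.93) and the fibroblast gate (-1.78) alike.

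In Myh11 only barcodes 173 of 4043 genes (4.28%) were called higher and 155 (3.83%) lower. The counts were 165 higher and 64 lower of 2141 against Xist-only sham barcodes. The highest ratios were those of Zfp804b (5.75), Nup210l (2.98), the calcium-sensing membrane protein Mctp1 (2.51), Csmd1 (2.42), the long RNA Pvt1 (2.33), Edn1 (2.18), monoamine oxidase Maoa (2.14), Sema7a (1.97), Rundc3b (1.95) and the ephrin Efna5 (1.94). The lowest were those of Cd74 (-3.59), Ddx3y (0 UMIs against 65), Tmem132d (-3.36), Ramp1 (-3.02), Spp1 (-2.63), the diacylglycerol kinase Dgkg (-2.61), Timp1 (-2.38), Rpl29 (-2.26), Slc22a3 (-2.23) and the bicarbonate exchanger Slc4a3 (-2.13). Against Xist-only sham barcodes Slc4a3 (-1.22, -3.13 to 0.68), Ramp1 (-1.81, -4.08 to 0.27) and Rundc3b (1.06, -0.14 to 2.47) lost their calls. Cd74, Spp1, Dgkg, Timp1 and Slc22a3 stayed lower by more than 2-fold but fell below 50 UMIs and did not enter there. Contractile genes had a median of -0.95, with 11 of 23 called lower, and 9 endothelial markers a median of 0.80. The contractile median of the class was -0.33 against Xist-only sham barcodes. Acta2 (-1.18), Myl9 (-1.06), Tpm2 (-1.35) and Pln (-1.22) were still called lower there, while Tagln (-0.69), Mylk (-0.49) and Lmod1 (-0.33) were short of 2-fold. In channel only barcodes Csmd1 (6.51), Slco2a1 (3.60), the haemoglobin genes Hba-a1 (2.68), Hbb-bs (2.67) and Hba-a2 (2.33), Myoc (2.35), the growth factor Hbegf (2.17), the endothelial diaphragm protein Plvap (2.17) and Icam1 (2.14) were highest, with Selp at 83 UMIs against 0. The lymphatic genes Reln (-6.99), Ccl21a (-5.97), Mmrn1 (-5.67), Lyve1 (-4.66) and Prox1 (-4.01), with Pard6g (-4.51), Pcsk6 (-3.03), Rpl29 (-2.60), Ifi27l2a (-2.22) and Timp4 (-1.89), were lowest there. Rpl29 of this class was at -2.39 against Xist-only sham barcodes, with 44 UMIs, and did not enter. Endothelial markers stood at a median of -0.70 in this class (8 genes) and contractile genes at 0.51, with 4 of 12 called higher, among them Acta2 (380 and 144 CPM, 1.40) and Tagln (445 and 157 CPM, 1.50). In endothelial-poor channel only barcodes Acta2 was at -0.26 and Tagln at -0.64.

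In endothelial-poor barcodes the highest ratios were those of Hbb-bs (4.45), Tnfaip6, the RNA-binding protein Celf2 (3.08), the adhesion molecule Opcml (3.05), apolipoprotein Apoe (3.00), Adamts4, Pdzd2 (2.87), Csmd1 (2.65), Clec3b (2.50) and Ahdc1 (2.15). The lowest were those of Spp1 (-3.09), the matrix protein Chad (-2.94), Sox6 (-2.71), Angptl7 (-2.64), the actin-bundling palladin Palld (-2.59), the ectonucleotidase Entpd1 (-2.51), Pln (-2.42), Olfml2a (-2.38), Ntf3 and Rpl29 (-2.34).

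Markers of other cells were measured in the same barcodes, and their part in the results was not tested. Over all mural barcodes the 10 endothelial markers summed to 4988 and 4150 CPM (median 0.34, 1 called higher), the 9 fibroblast markers to 2134 and 2129 CPM (median 0.43, 2 called higher), the 7 tenocyte markers to 1068 and 1466 CPM (median -0.30, 3 called lower) and the 4 haemoglobin genes to 1603 and 1214 CPM (median 0.50). The 8 Schwann cell markers summed to 77.9 and 48.1 CPM, the 9 leukocyte markers to 102 and 96.3 CPM, the 10 skeletal muscle markers to 192 and 56.8 CPM and the 5 satellite cell markers to 0 and 2.87 CPM. The 6 lymphatic markers summed to 84.5 and 494 CPM (median -2.65, all called lower). The medians against Xist-only sham barcodes were -1.07 for tenocyte markers, 1.08 for haemoglobin genes and -4.03 for lymphatic markers. Of the 5 satellite cell markers 5 and 4 were at 0, and of the skeletal muscle markers 1 and 5. Among the remaining lists the median was 0.17 for 15 interferon genes (1 called higher), 0.30 for 10 antigen presentation genes (1 lower), 0.10 for 14 hypoxia and glycolysis genes (1 each way), 0.20 for 10 metallothionein and lipid genes (1 higher) and -0.45 for 4 cell cycle genes (2 lower). Acta2 was at 17.3 and 41.3 CPM in the fibroblast gate and at 16.5 and 41.2 CPM in barcodes with Ptprc, higher in the sham library, and at 147 and 117 CPM in the endothelial gate, higher in the neurectomy library. All of these were below its level over all mural barcodes of the same library. The sham channel only barcodes, given above, were close to the endothelial gate of their library. The marker sums cover all mural barcodes and do not show the endothelial-poor ones apart. There the fibroblast marker Clec3b was at 256 and 45.1 CPM (2.50, 1.69 to 3.36). The tenocyte marker Chad was at 83.2 and 639 CPM (-2.94, -3.83 to -2.17), so such markers were not even between the libraries.

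Mural barcodes of the ganglia held the same genes at other levels. The DRG library was counted against another feature list (35980 against 33696 genes), its mural barcodes had a median mitochondrial share of 0% against 3.25% and 3.41%, and 601 of 747 held Y-linked UMIs alone, so its values are given side by side without a test. In endothelial-poor barcodes Acta2 was at 2188, 6122 and 2498 CPM in neurectomy tendon, sham tendon and DRG, and Tagln at 1391, 4707 and 2808 CPM. The synuclein Sncg was at 149, 375 and 2311 CPM, and Rgs4 at 238, 273 and 670 CPM. Abcc9 was at 791, 347 and 161 CPM, Art3 at 345, 133 and 87.6 CPM and Npy1r at 166, 489 and 85.8 CPM. Il6 was at 137, 16.6 and 800 CPM.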

How the data were processed

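The authors deposited 1 UMI count matrix per library. Per the file headers, Cell Ranger 8.0.1 wrote it. The submitters' processing notes name mm10 and GRCm39 without a role, so no coordinate of the files was used. No header or label records a doublet filter, and no doublet caller was run here. Unthinned raw counts were summed per library and class, scaled to counts per 1000000, and compared as ratios with exact conditional 95% intervals in Python 3.11.15 with numpy 2.4.6 and scipy 1.17.1. A ratio against 0 used a floor of 3 counts over the group. The functions were tested on simulated data. Thinning drew 1000 UMIs per barcode. The endothelial and fibroblast gates needed at least 3 of 6 markers of their own and admitted fewer than 3 of the 6 mural markers. The named genes are the 10 highest and 10 lowest ratios per comparison (15 each way between classes), predicted genes left out, and the members of 31 lists. Members and lists were chosen with earlier results of these data known. Mice were pooled, so each group is 1 sample and intervals do not cover variation between mice. Alternatives changed the UMI minimum, the number of markers, the excluded genes, endothelial transcripts, quality filters, scaling, the filter on low counts and the sex of sham barcodes. The endothelial-poor and endothelial-bearing split and the removal of the barcode with most UMIs of a gene were chosen after seeing the data. The depth per library is given with the results. Some genes of the lists are not reported here by name.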

Additional observations from a re-analysis of the deposited data

Results flagged for a closer look

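For 7 genes the neurectomy and sham libraries differed in opposite directions in Myh11 only and channel only barcodes, each past 2-fold with an interval that excluded no change. The difference between the classes was not tested. The log2 ratios in Myh11 only and channel only barcodes were -1.66 and 1.40 for Acta2, -1.58 and 1.50 for Tagln, -1.92 and 1.45 for Tpm2, -1.08 and 1.26 for Igfbp5, which encodes an IGF-binding protein, and -1.09 and 1.11 for Comp, a tendon matrix protein. They were 1.41 and -2.22 for the interferon-induced Ifi27l2a and 1.10 and -1.56 for Kank3, an endothelial adhesion protein. Endothelial markers had medians of 0.80 and -0.70 in the same classes, and their part in these values was not tested. In endothelial-poor channel only barcodes Acta2 was at -0.26, Tagln at -0.64, Tpm2 at -0.18 and Comp at -0.43, and Comp was at 3.04 in endothelial-poor Myh11 only barcodes. Against sham barcodes with Xist alone Ifi27l2a was at 0.90 (-0.23 to 2.22) in Myh11 only barcodes and was not called there. Kank3 was at 1.28 in Myh11 only and -1.61 in channel only barcodes in that comparison, with fewer than 50 UMIs in each, and did not enter.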

How the results depend on the processing

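One library per group, pooled mice and unequal sex limit every comparison, and few UMIs per gene limit the smaller classes. No paired analysis was possible because each group has 1 library. The share ratio of 1.34 was 1.07 without barcodes holding Pecam1 or Cdh5, 1.04 in endothelial-poor barcodes and 1.04 after thinning. The Myh11 only share was 30.2% (neurectomy) without Pecam1 or Cdh5, 51.2% (sham) from 5000 UMIs and 47.5% (sham) with Xist alone, and the cause was not tested. With at least 4 markers it was 5.26% (neurectomy) and 7.27% (sham), a drop set by the class itself, since such barcodes lack both channel genes and can hold at most 4 of the 6 markers. The same holds for the counts with 4 markers that follow where they concern this class. Counts of genes 2-fold apart over all barcodes went from 254 to 157 with 4 markers, 139 in endothelial-bearing barcodes and 758 with no filter on low counts, which adds genes. In Myh11 only barcodes they went from 328 to 28 with 4 markers, 206 without Pecam1 or Cdh5, 204 in endothelial-poor and 133 in endothelial-bearing barcodes, and 889 with no filter. In channel only barcodes they went from 153 to 69, 25 and 23 under the first 3 of these, and 715 with no filter. Between classes the 74 genes became 38 from 5000 UMIs, 9 with 4 markers, 45 without Pecam1 or Cdh5, 38 in endothelial-poor, 29 in endothelial-bearing barcodes and 190 with no filter. All of these but the unfiltered counts rest on fewer barcodes.

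Signs turned in endothelial-bearing barcodes, and also in endothelial-poor barcodes and in those without Pecam1 or Cdh5. Over all classes of endothelial-bearing barcodes, Acta2 was at 0.20, Tagln 0.27, Pln 0.80, Mylk 0.28, Tpm1 0.16, Rgs7bp 0.27, Lama2 -0.011, and list medians were 0.15 (contractile), 0.019 (cGMP and cAMP) and -0.0043 (fibroblast). In Myh11 only endothelial-bearing barcodes Acta2 was at 0.067, Myl9 0.0059, Pln 0.97, Lmod1 0.50, Mylk 0.55, Npy1r 0.10, Slc4a3 0.90, the contractile median 0.21 and the pericyte median 0.11. In endothelial-poor barcodes Ccl21a was at 3.20, Col1a1 0.92, Pdgfrb 0.49 and the fibrillar matrix median 0.25, in the Myh11 only ones Col1a1 was at 4.57 and Comp 3.04, and in the channel only ones Col1a1 was at -0.75, Comp -0.43, Acta2 -0.26, Tagln -0.64, Tpm2 -0.18 and the fibrillar matrix median -0.29. Without Pecam1 or Cdh5, Ccl21a was at 3.03, Col1a1 0.69 (Myh11 only 1.88), Pdgfrb 0.39, Comp 0.42 (Myh11 only) and -0.99 (channel only), the fibrillar matrix median 0.11, Timp1 (Myh11 only) 0.84, and in channel only barcodes Tagln and Tpm2 were both at -0.60 and Myoc at -0.37. From 5000 UMIs the fibroblast median was -0.12, the haemoglobin median -0.13 and Hba-a2 (channel only) -0.051. Without its top barcodes Ccl21a was at 0.61. The neuropeptide receptor median was 0.042 against Xist-only sham barcodes, the cell cycle median 0.42, Col1a1 (channel only) -0.18 and Comp (channel only) -0.18 with 1 UMI of each excluded gene allowed, the channel only fibrillar matrix median -0.020 and Comp there -0.19 with each barcode scaled to its own total, and Col5a3 between classes 1.04 with 4 markers. Of the other values of single genes between libraries, 1191 stayed within the counting interval of the value reported and 321 moved beyond it.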
